A study of Homo sapiens with 5 samples.

Results

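The transcripts of 6 abundant cytoskeletal and motor genes were examined for SRSF9 peaks in HEK 293T cells, an established human embryonic kidney line. The genes were the cytoplasmic actins ACTB and ACTG1, the α-tubulin gene TUBA1B, the β-tubulin gene TUBB, the intermediate filament gene VIM (vimentin) and DYNC1H1, which encodes the heavy chain of cytoplasmic dynein 1. Members were all rows of the authors' peak table that overlapped fixed hg19 intervals around these genes, which gave 71 peaks of 80514. They comprised 12 in ACTB, 10 in ACTG1, 7 in TUBA1B, 7 in TUBB, 15 in VIM and 20 in DYNC1H1. The interval alone decided which peaks were taken.

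The assay was eCLIP, which cuts RNA into short fragments in the lysate, pulls down those bound to the protein, cuts the complexes from a nitrocellulose membrane and sequences the RNA. There were 2 libraries from cells overexpressing SRSF9 and ADAR2 together, and 2 from cells overexpressing SRSF9 only, so raised SRSF9 is common to both conditions. The further input library came from cells with both proteins, and no column of its own was used. According to the sample labels the antibody was anti-SRSF9, whereas the protocol names MYC beads, and nothing labels a condition's libraries as separate cultures, so p-values reflect only how far these libraries differ, possibly for technical reasons. Each peak carries a log2 ratio made by the authors for both libraries of a condition that has the peak, with a denominator that the table does not name, and it is classed as found only with ADAR2, shared, or found only without ADAR2. Read depths are unknown here. Both libraries of a condition had ratios of the same sign in every member peak. The share of such peaks over the whole table was not determined, so this is not a trait of these loci. Libraries are called first and second in the order of the table, which gives no replicate names.

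SRSF9 belongs to the SR proteins, which bind short exonic RNA sequences and take part in splice site choice, export and translation. ADAR2 is an editing enzyme that deaminates adenosine in double-stranded RNA, leaving inosine. Actin filaments, microtubules built from α- and β-tubulin, and vimentin filaments form the cytoskeleton, and dynein moves cargo along microtubules towards their minus ends. Actins and tubulins belong to families with many near-identical genes and processed pseudogenes, so short reads from their coding parts can match several places in the genome.

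This similarity is shown by the start of the coding sequence of both actins, because it bears on ACTB and ACTG1 reads from coding sequence. The first 60 coding bases, from GENCODE release 29 transcripts, are given from 5′ to 3′, with the 10 positions that differ in capitals.
ACTB: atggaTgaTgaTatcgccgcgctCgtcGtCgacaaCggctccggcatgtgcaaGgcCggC
ACTG1: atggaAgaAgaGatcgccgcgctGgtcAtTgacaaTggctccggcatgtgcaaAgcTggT
Over the whole coding sequence of 1128 bases the actins matched at 1029 positions, an identity of 91.2%. The longest identical run was 59 bases, from coding base 832 to 890, and is shown because it exceeds the median width of the member peaks.
ACTB and ACTG1 shared run: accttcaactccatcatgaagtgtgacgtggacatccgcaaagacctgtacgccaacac

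The share of coding sequence found elsewhere differed widely between the genes. Of all stretches of 30 nt in the coding sequence, 86.8% in TUBA1B also occurred in an annotated transcript of another gene, followed by 57.2% in TUBB, 49.0% in ACTB and 33.7% in ACTG1. The corresponding value was 0.510% in VIM and 0% in DYNC1H1. The order differed in the 3′ UTR, where the share of 30 nt stretches was 19.2% in DYNC1H1, the highest of the 6 genes, against 4.08% in TUBA1B, 4.72% in ACTB and 7.89% in ACTG1. The GENCODE span of DYNC1H1, 91934 nt, is longer than its interval of 88 kb, so part of the gene lies outside. How much of its 3′ UTR lies inside was not determined. With stretches of 50 nt the shares were 75.7% in TUBA1B, 33.4% in TUBB, 17.8% in ACTB and 7.32% in ACTG1. TUBA1B shared most with its paralogs TUBA1A (609 stretches of 50 nt) and TUBA1C (587), TUBB with the pseudogene TUBBP1 (422), and ACTB with the pseudogene ACTBP2 (95). How reads with several matches were treated is not given in the sources at hand, so the gene of origin of actin and tubulin peaks in coding sequence is uncertain. Whether this moved any of the results was not tested.

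**Figure D1:**
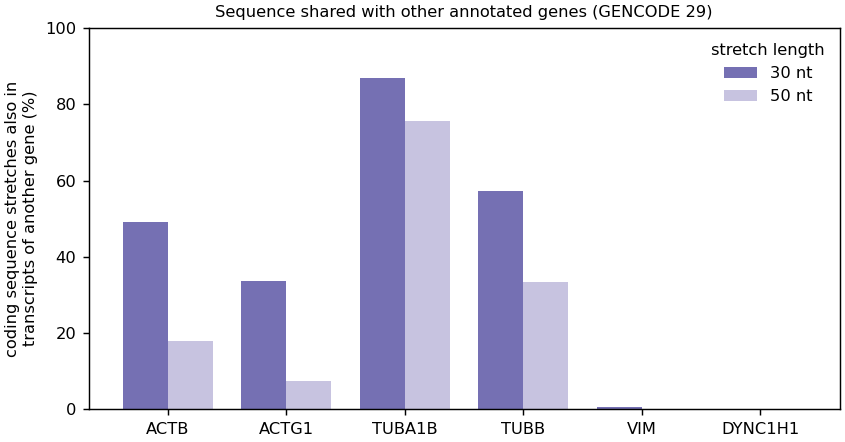
Share of all 30 nt and 50 nt stretches of each gene's coding sequence (vertical axis, in percent) that also occur in a GENCODE 29 transcript of another gene. TUBA1B has the tallest bars (86.8% and 75.7%), whereas VIM (0.510% at 30 nt) and DYNC1H1 (0%) lie at or near the axis.

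Peaks found without ADAR2 took a larger share of these loci than of the table as a whole. Of the 71 peaks, 41 were found only with ADAR2, 57.7% (95% Wilson interval 46.2 to 68.5), against 89.4% of all 80514 peaks. A further 17 were shared, 23.9% (15.5 to 35.0), against 4.72% in the table. The remaining 13 were found only without ADAR2, 18.3% (11.0 to 28.8), against 5.92%. The loci thus held 58 peaks with ADAR2 and 30 without it, a ratio of 1.93, where the whole table had a ratio of 8.84. Without DYNC1H1, the largest gene, the ratio was 1.78 over 51 peaks. These intervals cover counting error over peaks only, and neighbouring peaks are not independent. Some of the 13 peaks found only without ADAR2 repeated the value of a neighbouring row in 1 library. In ACTG1 and VIM that row was a shared peak, 17 and 60 nt away, and in TUBA1B and DYNC1H1 another of the 13. Whether such rows are parts of 1 peak was not tested. With 1 peak set for each condition, no test between conditions was made.

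Each of the 6 genes had a lower ratio of peaks than the table. The ratio was lowest in ACTB, with 7 peaks with ADAR2 and 6 without, followed by VIM with 13 and 9. In TUBB there were 7 and 3 peaks, in DYNC1H1 17 and 7, in TUBA1B 5 and 2, and in ACTG1 9 and 3, the highest ratio of the 6 at 3. With counts this small the order among the genes rests on a few peaks. The makeup also differed in kind. VIM had 7 shared rows out of 15, which describe 6 regions because 1 region is listed in 2 rows. TUBA1B had 0 shared peaks among its 7, and TUBB had 0 peaks found only without ADAR2 among its 7, counts that allow a share of up to 35.4% by the Wilson interval.

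**Figure D2:**
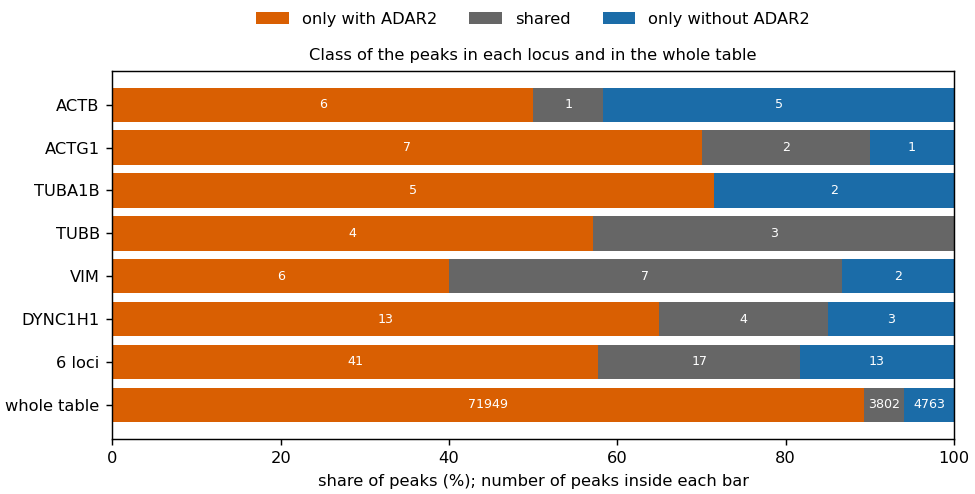
Share of peaks (horizontal axis, in percent) in each class, for each locus, for the 6 loci together and for the whole table, with the number of peaks printed in each bar. Peaks found only with ADAR2 make up 40.0% to 71.4% of the peaks of single loci, against 89.4% of the table.

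Peaks were dense in the short genes and sparse in the long one. There were 2.5 peaks per kb of interval in ACTG1, 2.4 in ACTB, 1.5 in VIM, 1.4 in TUBA1B and 1.17 in TUBB, against 0.227 in DYNC1H1. Peaks covered 16.7% of the ACTB interval, 15.0% of that of ACTG1 and 0.869% of that of DYNC1H1. The DYNC1H1 interval spans 88 kb, while the coding sequence of its GENCODE transcript is 13941 nt long, so most of the interval lies outside coding exons. Of all 41417 windows of 5 kb on a fixed grid that held a peak, 76 held at least 12, the number in the ACTB interval. At least 5 peaks found only without ADAR2, as in ACTB, were held by 17. The ACTB interval was placed on the gene and crosses a border of the grid, so it is not one of these windows.

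The member peaks were also wide, except in DYNC1H1. By gene, the median width was 61.5 nt in ACTB, 61 nt in TUBB, 53 nt in TUBA1B, 45 nt in ACTG1 and 41 nt in VIM. In DYNC1H1 it was 31 nt, below the 34 nt over all peaks of the table. By class, the median over the member peaks was 43 nt only with ADAR2, 61 nt shared and 50 nt only without it. In the whole table these classes had 34, 51 and 32 nt. A shared VIM peak of 390 nt, on chromosome 10 from 17271281 to 17271670, was the widest of the table, where the next was 383 nt. Shared peaks of 281 nt in ACTG1 and 216 nt in ACTB followed among the members. At the other end, a DYNC1H1 peak found only without ADAR2 was 1 nt wide. The sources used here do not give how peak edges were set.

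Ratios at these loci were low. Over the 58 member peaks found with ADAR2 the median log2 ratio was 0.93 in one library and 0.49 in the second, against 1.16 and 1.06 over all such peaks of the table. Over the 30 found without ADAR2 it was 0.32 and 0.09, against 1.07 and 0.24. A ratio above 1 in both libraries was reached by 8 of the 58 peaks with ADAR2, 13.8%, against 43.0% in the table, and by 0 of the 30 without ADAR2, against 9.22%. Ratios below 0 in both libraries, which mark less signal than the denominator, were found in 8 of 58 peaks with ADAR2, 13.8% (7.16 to 24.9), against 7.45% in the table. Without ADAR2 they were found in 13 of 30, 43.3% (27.4 to 60.8), against 25.7%. A log2 ratio is relative to its denominator and is not a measure of how much SRSF9 is bound to a transcript.

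The order of the genes by ratio changed with the library. In the first library with ADAR2 the median was highest in ACTB at 1.40 and ACTG1 at 1.19, followed by DYNC1H1 at 1.07, VIM at 0.78, TUBA1B at 0.62 and TUBB at 0.32. In the second library with ADAR2 TUBA1B came first at 0.89, followed by DYNC1H1 at 0.65, ACTG1 at 0.51, ACTB at 0.43, VIM at 0.23 and TUBB at 0.01. TUBB was thus lowest in both, and the other 5 genes changed places. Without ADAR2 TUBB was again lowest in both libraries, at -0.47 and -1.02, and ACTB came next, at -0.11 and -0.63. The remaining medians without ADAR2 were 1.33 and 0.10 in ACTG1, 0.72 and 0.30 in VIM, 0.37 and 0.11 in DYNC1H1 and 0.15 and 0.30 in TUBA1B. Some gene medians lay above that of the whole table. These were ACTB and ACTG1 in the first library with ADAR2 (1.16 in the table) and ACTG1 in the first without it (1.07). VIM and TUBA1B were above it in the second library without ADAR2 (0.24). All other gene medians were below that of the table.

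**Figure D3:**
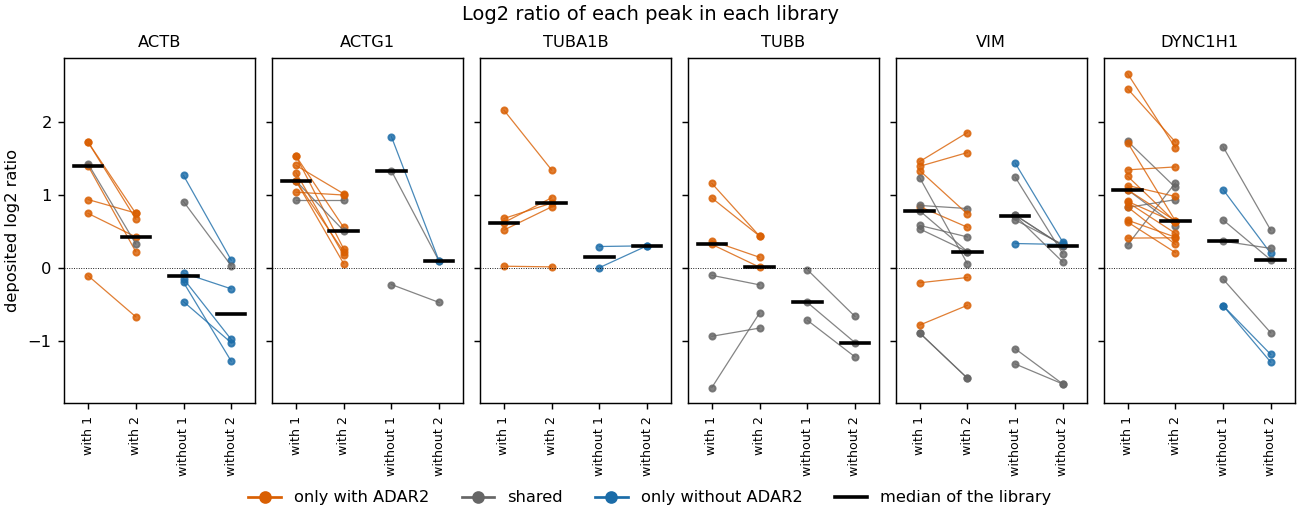
Deposited log2 ratio (vertical axis) of every member peak in the 2 libraries with ADAR2 and the 2 without, 1 panel per gene. Thin lines join the values of 1 peak within a condition, colours give its class and black bars the median of the library, which is lowest in TUBB in all 4 libraries.

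In ACTB the peaks of both conditions lay side by side in separate stretches. The gene is read from the minus strand, so its 3′ end lies at the lower coordinates. The 3 peaks nearest the 3′ end, from 5566856 to 5566916, 5567078 to 5567142 and 5567197 to 5567258 on chromosome 7, were all found only without ADAR2. Their ratios were -0.20 and -1.27, 1.27 and 0.11, and -0.46 and -1.02 in the first and second library, so only the middle one was above 0. The next 5 peaks towards the 5′ end, between 5567397 and 5568064, were all found only with ADAR2. The highest of these, from 5567999 to 5568064, had 1.72 and 0.75, and its neighbour from 5567912 to 5567963 had 1.72 and 0.67. The next highest, from 5567803 to 5567816, had 0.94 and 0.75. The highest pair carry the same value in the first library, as do other adjacent rows described below.

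Further towards the 5′ end of ACTB followed the single shared peak, from 5568122 to 5568337, with 1.42 and 0.33 with ADAR2 and 0.91 and 0.03 without it. The values of the conditions overlapped. After it came a further pair of peaks found only without ADAR2, from 5568826 to 5568885 with -0.07 and -0.28 and from 5569187 to 5569293 with -0.15 and -0.97, both below 0. The peak nearest the 5′ end, from 5570155 to 5570201, was found only with ADAR2 and was the lowest of that class in the gene, with -0.10 and -0.67. All 7 ACTB peaks with ADAR2, and all 6 without it, were higher in the first library of the condition than in the second.

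ACTG1 had ratios above 0 in all 9 of its peaks with ADAR2. On chromosome 17 the highest found only with ADAR2 lay from 79477716 to 79477781, with 1.40 and 1.02, followed by 79477792 to 79477849 with 1.53 and 0.56 and 79478123 to 79478133 with 1.04 and 1.00. The lowest, from 79478574 to 79478608, had 1.19 and 0.06. The shared peak from 79478279 to 79478559 had 1.19 and 0.51 with ADAR2, against -0.22 and -0.47 without it. Here both values with ADAR2 lay above 0 and both without it lay below. The other shared peak, from 79477195 to 79477216, was the one nearest the 3′ end and had 0.93 in each library with ADAR2, against 1.33 and 0.10 without it, so the conditions overlapped. The only ACTG1 peak found only without ADAR2 lay 17 nt from it, from 79477233 to 79477238, with 1.80 and 0.10. Its first value was the highest of any member in a library without ADAR2.

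TUBA1B, also on the minus strand, was divided by position. Both peaks found only without ADAR2 were the ones nearest its 3′ end, on chromosome 12 from 49521680 to 49521732 with 0.30 in each library, and from 49521792 to 49521841 with 0.01 and 0.30. The 5 peaks found only with ADAR2 all lay further towards the 5′ end. The highest, from 49524806 to 49524847, had 2.16 and 1.34, and the next were 49523486 to 49523506 with 0.62 and 0.96 and 49523296 to 49523388 with 0.68 and 0.89. The lowest, from 49522620 to 49522676, had 0.03 and 0.02, close to the denominator in both libraries. Which of these peaks lie in the coding sequence that TUBA1B shares with other genes was not determined.

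TUBB was the gene with the lowest ratios, and its shared peaks accounted for every value below 0. On chromosome 6 the shared peak from 30691638 to 30691698 had -0.93 and -0.82 with ADAR2, against -0.47 and -1.02 without it. That from 30692118 to 30692242 had -0.10 and -0.23 with ADAR2, against -0.02 and -0.66 without it. The third, from 30692294 to 30692315, lay nearest the 3′ end and had -1.63 and -0.61 with ADAR2, against -0.71 and -1.21 without it. The conditions overlapped in all 3. The 4 peaks found only with ADAR2 were above 0, the highest from 30691936 to 30692002 with 1.16 and 0.44, then 30691865 to 30691926 with 0.96 and 0.44 and 30690342 to 30690389 with 0.37 and 0.15. The lowest of them, from 30691348 to 30691403, had 0.32 and 0.01.

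VIM, read from the plus strand, had low ratios near its 5′ end and higher ones further along. The widest peak, centred 1.47 kb from the 5′ end of the 10 kb interval, had -0.89 and -1.50 with ADAR2, against -1.21 and -1.58 without it, averaged over its rows. The next peaks along the gene were found only with ADAR2 and were also below 0, with -0.20 and -0.13 from 17271751 to 17271793, and -0.78 and -0.51 from 17271854 to 17271972, the lowest of that class in the gene. From 5.61 kb onward all 11 rows were above 0 in every library that had a value. Among those found only with ADAR2 the highest were 17275660 to 17275681 with 1.46 and 1.85, 17275769 to 17275801 with 1.39 and 1.58, and 17277847 to 17277888 with 1.33 and 0.74. The table gives no strand, and GENCODE places the antisense gene VIM-AS1 opposite VIM, so reads of the pair cannot be told apart. Each of the other 5 genes, taken over its whole annotated span, also overlaps an annotated gene on the opposite strand. In ACTB, ACTG1 and DYNC1H1 that span is longer than the interval, and whether the overlap falls inside the interval was not determined.

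The 5 further shared VIM regions lay between 5.85 and 8.31 kb from the 5′ end of the interval. The first, from 17275830 to 17275870, had 0.78 and 0.23 with ADAR2, against 0.73 and 0.30 without it, and the second, from 17275914 to 17275930, had 0.54 and 0.23, against 0.73 and 0.30. The region from 17276692 to 17276742 had 0.86 and 0.81 with ADAR2, against 0.66 and 0.32 without it, and was the only VIM region in which both libraries with ADAR2 were above both without. Overlap was seen again from 17277207 to 17277377, with 0.58 and 0.43 against 0.72 and 0.08, and from 17278302 to 17278325, with 1.23 and 0.06 against 1.24 and 0.20. Of the peaks found only without ADAR2, that from 17276802 to 17276817 had 0.34 and 0.32. The other, from 17279236 to 17279252, was the peak nearest the 3′ end, with 1.44 and 0.36.

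DYNC1H1 peaks found without ADAR2 were confined to the first part of the gene in the table, while those with ADAR2 ran along all of it. All 7 peaks found without ADAR2, shared ones included, lay within 22.7 kb of the 5′ end of the 88 kb interval. Of the 13 found only with ADAR2, 11 lay beyond that point, the last at 86.5 kb. This division was described after the positions were seen and was not tested. All 17 peaks with ADAR2 were above 0 in both libraries. The highest of those found only with ADAR2 were 102480254 to 102480256 on chromosome 14, with 2.65 and 1.65, 102446129 to 102446166 with 2.45 and 1.72, and 102498767 to 102498772 with 1.34 and 1.38. The first and last of these are 3 and 6 nt wide. The lowest found only with ADAR2, from 102452579 to 102452620, had 0.41 in each library.

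Near the 5′ end of DYNC1H1 the shared peak from 102430955 to 102431023 had 1.07 and 0.58 with ADAR2, against -0.15 and -0.88 without it, so it was above 0 in one condition and below in the other. Close by lay peaks of 1 and 4 nt found only without ADAR2, at 102431245 with -0.51 and -1.28 and from 102431256 to 102431259 with -0.51 and -1.18. After a stretch of 14.9 kb with no peak, a peak found only without ADAR2, from 102446285 to 102446300 with 1.07 and 0.20, lay 119 nt from one of the highest peaks with ADAR2. The shared peak from 102452188 to 102452284 had 1.73 and 1.10 with ADAR2, against 0.37 and 0.27 without it, and that from 102452666 to 102452695 had 0.83 and 0.94, against 0.66 and 0.11. In both of these regions the values with ADAR2 were above those without. The opposite tendency was seen from 102449844 to 102449875, with 0.32 and 1.17 with ADAR2, against 1.66 and 0.52 without it, but these values overlapped.

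**Figure D4:**
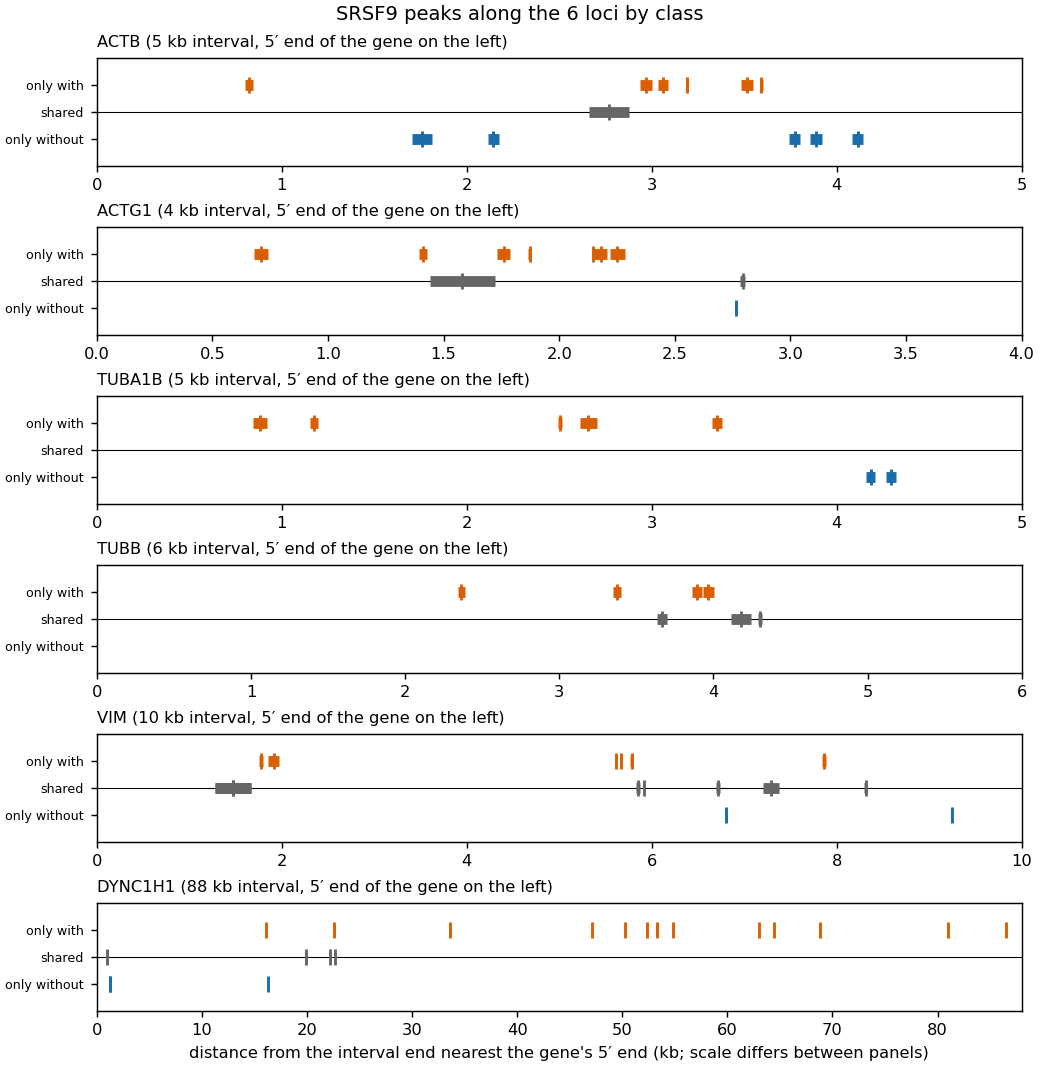
Position of every member peak along its interval (horizontal axis, kb from the end nearest the gene's 5′ end), in 1 row per class, with a tick at the centre of the peak. The peaks nearest the 3′ end are of the class found only without ADAR2 in ACTB, TUBA1B and VIM, whereas in DYNC1H1 only peaks found only with ADAR2 lie beyond 22.7 kb.

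Along the gene, the peak nearest the 3′ end was found only without ADAR2 in ACTB, TUBA1B and VIM, shared in ACTG1 and TUBB, and found only with ADAR2 in DYNC1H1. The run of such peaks from the 3′ end was 3 in ACTB, 2 in TUBA1B and 1 in VIM. At the 5′ end the outermost peak was found only with ADAR2 in ACTB, ACTG1, TUBA1B and TUBB, and was shared in VIM and DYNC1H1. Exon and UTR borders on hg19 were not used here, so these positions are distances within the intervals and not transcript regions. Each of the 13 peaks found only without ADAR2 had a peak with ADAR2 within 1 kb, at 17 to 911 nt, against 63.2% of all such peaks in the table. Within 100 nt it was 2 of 13, 15.4%, against 23.9%. The loci are dense in peaks, and the part of this density in the closeness was not tested.

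Shared regions have ratios in both conditions, and none of those in the 6 loci passed the test between conditions. Whether both conditions have the same denominator is not known. By limma over all 3645 shared regions of the table, with Benjamini-Hochberg adjustment, 0 of the 16 member regions differed (2 at an unadjusted p under 0.05, both higher with ADAR2). Over all shared regions, 18.5% were higher and 2.41% lower with ADAR2. The median difference, with minus without ADAR2, was 0.19 over the 16 regions and 0.62 over all shared regions, and 10 of the 16 were higher with ADAR2, 62.5%, against 73.6%. Both libraries with ADAR2 were above both without in 5 of the 16 regions, against 49.9% in the table, and below both in 0, against 9.22%. Each difference had a standard error of 0.59, the same for every region, because limma pooled the variance wholly over all 3645 regions in this fit. It is thus not the spread of any single region. The smallest difference that this fit called anywhere in the table was 1.51 in size, so smaller ones could not be called by it. Each library was also centred on its median over all shared regions, which lowers every difference by 0.59. After this, 3 of the 16 were higher and 13 lower with ADAR2, and the limma test again called 0. Over all shared regions centring brought the median difference to 0.03, and 12.6% were then called higher and 10.9% lower with ADAR2.

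The regions with the largest differences were in DYNC1H1 and ACTG1. The DYNC1H1 region from 102430955 to 102431023 averaged 0.83 ± 0.35 with ADAR2 and -0.52 ± 0.52 without it (SD, n = 2 libraries each). Its difference was 1.34 ± 0.59 (SE pooled over all shared regions), with a limma adjusted p of 0.0872. When limma's variance was allowed to follow the mean ratio, its adjusted p was 0.0230, the only call among the 16 regions under any setting tried. The ACTG1 region from 79478279 to 79478559 averaged 0.85 ± 0.48 with ADAR2 and -0.35 ± 0.17 without it (SD, n = 2 libraries each), a difference of 1.20 with a limma adjusted p of 0.134. A difference of 1.10 was seen in the DYNC1H1 region from 102452188 to 102452284, with a limma adjusted p of 0.175. By gene the median difference was 0.80 over 4 regions in DYNC1H1, 0.71 over 2 in ACTG1, 0.41 in the single ACTB region, 0.05 over 6 in VIM and -0.13 over 3 in TUBB.

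**Figure D5:**
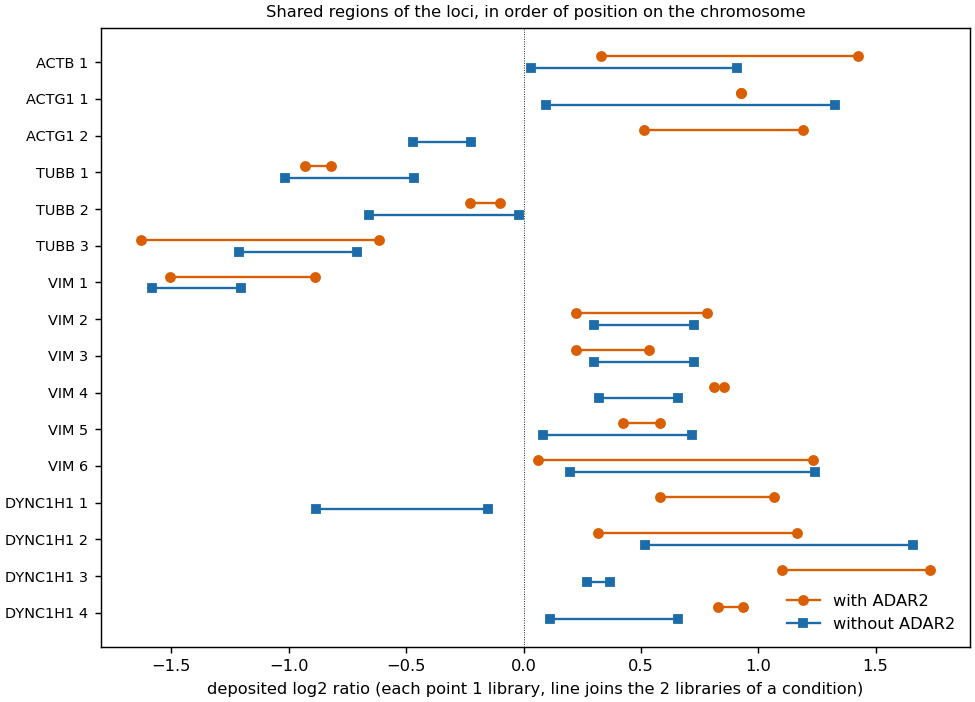
Deposited log2 ratio (horizontal axis) of the 16 shared regions of the loci, numbered by position within each gene, with the 2 libraries with ADAR2 joined above the 2 without. The conditions are separated in 5 regions, 1 in ACTG1, 1 in VIM and 3 in DYNC1H1, and overlap in the other 11.

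Some values are not independent of their neighbours. Values written to over 3 decimals, which averaging of several source values would give, made up 17.2% and 25.9% of the member values in the first and second library with ADAR2, against 2.27% and 1.95% in the table. In the second library without ADAR2 they made up 66.7%, against 22.0%, and in the first 0% in both. The same value recurred in a neighbouring row of the locus, within 500 nt, for 9 and 6 of the 58 values with ADAR2 and for 4 and 10 of the 30 without it. In ACTG1, for example, 3 consecutive rows from 79478214 to 79478608 all had 1.19 in the first library with ADAR2. The second library without ADAR2 was below the first in 28 of the 30 member peaks, 93.3%, as it was in 91.6% of the table.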

How the data were processed

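The deposited data are a single peak table covering the series, on hg19 per the submitters' processing notes. The authors deposited a log2 ratio per peak and library and a class per peak. The sources used here give no aligner, peak caller, threshold or denominator, and do not say how replicates were combined. The value columns were assigned to conditions by the class column, since the absent condition always holds the placeholder 0. Starts were shifted to count from 1. Rows touching the 6 intervals by at least 1 nt were taken. Rows of shared peaks with identical coordinates were averaged, and all 3645 shared regions were fitted with limma 3.58.1 (R 4.3.3), calling an adjusted p (Benjamini-Hochberg) under 0.05. Tested on simulated data for this comparison, the fit recovered 195 of 200 regions shifted by 3 on the log2 scale among 3645, with 6 false calls. The shift was larger than any difference of the member regions, and the simulated libraries had no offset between them. Recovery of differences as small as those of the members was therefore not tested.

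Strand, transcript sequences and overlapping genes came from GENCODE release 29, which is on GRCh38, and none of its coordinates were used. Other cytoskeletal genes were not analysed here, because no hg19 annotation was at hand. The member genes, lists and tests were chosen with earlier results of these data known. By rule, the text names all shared regions, all peaks found only without ADAR2 and, per gene, the 3 highest and the lowest peak found only with ADAR2.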

Additional observations from a re-analysis of the deposited data

How the results depend on the processing

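Requiring the whole peak inside the interval, widening the intervals by 1 kb, counting identical coordinates once and merging peaks of a class within 100 nt kept each class count of the loci within 1.5 times. Neighbouring peaks of different classes were not merged. With a ratio above 0 in both libraries of a condition, 38, 12 and 7 peaks remained only with ADAR2, shared and only without, and above 1 there were 7, 1 and 0. Of the peaks above 0, 12.3% in the loci were found only without ADAR2, against 4.94% over the whole table. Above 1 the loci held 8 peaks and the share was 0%, against 1.46%. So few peaks cannot show whether the larger share of this class holds there. Peaks found only with ADAR2 made up 66.7% of those above 0 in the loci, against 90.2% over the whole table. Above 1 they made up 87.5%, against 93.1%. Centring each library on its median over the table moved the mean of the library medians of the loci to -0.40 with ADAR2, against 0.71 as deposited, and to -0.45 without it, against 0.20. The cause of the low ratios was not tested. No interval on single values could be computed, as depth is unknown.

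With no library left out, limma called 0 of the 16 member regions lower under every alternative, and 0 higher except with a variance trend, which called 1. The fit on regions above 0 in every library held only 10 of the 16. The DYNC1H1 region from 102430955 and the ACTG1 region from 79478279, which had the largest differences, were not among them. With each library centred on its median over the shared regions, 459 of all regions were higher and 396 lower with ADAR2. Among regions above 0 in every library 77 were higher and 5 lower. Leaving out 1 library left 0 to 199 higher and 0 to 22 lower over all regions, with 70 and 11 without the first library with ADAR2. Without either SRSF9-only library limma called 0 (1405 and 1051 at an unadjusted p under 0.05). Several differences of the members, none of which had passed, changed sign. Centring gave -0.18 in ACTB, -0.37 in ACTG1 from 79477195, -0.41 in TUBB from 30692118, -0.39, -0.25 and -0.49 in VIM from 17271281, 17276692 and 17277207, and -0.094 in DYNC1H1 from 102452666. Without 1 library in turn the difference ranged from -0.14 to 0.95 in ACTB (-0.032 without the second SRSF9-only library) and from -0.40 to 0.83 in ACTG1 from 79477195. In TUBB it ranged from -0.41 to 0.14, from -0.14 to 0.50 and from -0.67 to 0.35 in the 3 regions by position, the last with 0.089 without the first SRSF9-only library. In VIM the ranges were -0.11 to 0.51 from 17271281, -0.29 to 0.27 from 17275830, -0.34 to 0.079 from 17275914 (0.022 without the second library with ADAR2), -0.21 to 0.42 from 17277207 and -0.66 to 0.51 from 17278302 (0.45 without the first SRSF9-only library). In DYNC1H1 from 102449844 it was -0.92 to 0.22 (0.077 without the first library with ADAR2). In the same fits the difference of the DYNC1H1 region from 102430955 ranged from 0.97 to 1.71, that from 102452188 from 0.78 to 1.41, and that of ACTG1 from 79478279 from 0.86 to 1.54, and centring gave 0.75, 0.51 and 0.61. No paired analysis was possible because the columns carry no replicate numbers.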
